A study of Mus musculus with 8 samples.

Results

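The regions described here are distal tiles that were dense in H3K4me3 peaks in both tumors. Chromosomes 1 to 19 of mm9 were cut into 1648220 tiles of 1.5 kb from position 1. Of these, 1355111 were distal, that is, more than 5 kb from every transcript start in GENCODE vM1. A distal tile was a member when it held at least 7 H3K4me3 peak midpoints in each of the lines LLC-NR and LLC-R. The rule gave 990 members, which is 0.0731% of the distal tiles. The members were thus chosen by their H3K4me3 peaks, and their H3K4me3 is given only as a description. The other marks, the sequence and the annotation were not used to choose them.

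LLC-NR and LLC-R are lines of Lewis lung carcinoma, a mouse lung tumor. LLC-NR is sensitive to VEGF-Trap, a decoy receptor that binds VEGF, and LLC-R became resistant through 5 rounds of selection in mice under continuous VEGF-Trap. Cells of each line were grown as subcutaneous isografts in C57BL/6J female mice of 6 to 8 weeks of age, to a size of about 500 mm3. Chromatin was cut with micrococcal nuclease and precipitated with antibodies to 4 histone marks, with 1 library for each line and mark and 8 libraries in all. An isograft also holds blood vessels, leukocytes and fibroblasts of the host, and cells of the tumor and of the host cannot be told apart here, nor can fewer cells of a type and less of a mark per cell. The labels give the tissue as lung. The promoters of 9 lung epithelium markers held 2 to 6 H3K4me3 peaks in LLC-NR and 3 to 6 in LLC-R, and those of 7 leukocyte markers held 2 to 7 and 1 to 6. The lists overlapped throughout, so these peak numbers did not separate cell types.

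H3K4me3 is best known from the nucleosomes around active promoters, where it is laid down by methyltransferase complexes recruited to unmethylated CpG islands. H3K9ac marks active promoters and enhancers, H3K27me3 is the mark of Polycomb repression, and H3K36me3 is left behind elongating RNA polymerase in gene bodies. Distal H3K4me3 is also known from unannotated promoters and from strong enhancers.

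Each peak in the files is a position of nucleosome width with no height. Peaks of a library do not overlap, so a tile can hold at most about 10, and the number of peaks responds less than a read count would. The libraries held from 5660458 to 9101721 peaks, with the fewest for H3K4me3. Libraries differ in their number of peaks, with 6432447 for H3K36me3 in LLC-NR and 8747519 in LLC-R, so each library was read against its own distal tiles, and a difference between lines is given beside the same difference in other distal tiles. No input library was used here, so the amount of DNA and the level of a mark cannot be told apart. The study lists more uniquely mapped reads in LLC-R than in LLC-NR for H3K36me3 and H3K27me3, and fewer for H3K4me3 and H3K9ac. A difference in peak number between the lines therefore cannot be told apart from a difference in read depth.

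The members fell into 3 kinds, a division that was made after the values were seen. First, 204 members lay in a block of 1.3 Mb on chromosome 15 around Myc and Pvt1. Second, 67 members elsewhere held a CpG-rich interval, defined as 500 bp with at least 55% G+C and a CpG observed over expected ratio of at least 0.6. Finally, 719 members elsewhere held no such interval. The sequences below show how different the members were. Each is the stretch of 300 bases of the tile that holds most CpG, on the plus strand of mm9, with every CpG in capitals.

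The first 4 are from the members with most CpG per tile. They are chr8:122752513-122752812, with 59 CpG, in an intron of the gene model Gm20388; chr15:80541887-80542186, with 56 CpG, 39.5 kb from the start of Fam83f; chr19:36423063-36423362, with 40 CpG, 29.8 kb from Pcgf5, a subunit of a Polycomb complex; and chr9:67481677-67481976, with 47 CpG, 73.7 kb from Tln2, a talin that links integrins to actin. The last 3 are intergenic. Their G+C content was 81.7%, 81.7%, 73.7% and 78%.
Gm20388 member: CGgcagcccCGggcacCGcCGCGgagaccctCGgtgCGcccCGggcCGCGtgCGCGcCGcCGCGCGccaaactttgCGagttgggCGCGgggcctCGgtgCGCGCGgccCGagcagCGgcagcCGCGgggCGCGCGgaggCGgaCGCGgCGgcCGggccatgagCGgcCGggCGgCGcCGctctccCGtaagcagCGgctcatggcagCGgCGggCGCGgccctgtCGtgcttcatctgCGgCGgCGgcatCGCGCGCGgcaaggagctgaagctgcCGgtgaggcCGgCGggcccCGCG
Fam83f member: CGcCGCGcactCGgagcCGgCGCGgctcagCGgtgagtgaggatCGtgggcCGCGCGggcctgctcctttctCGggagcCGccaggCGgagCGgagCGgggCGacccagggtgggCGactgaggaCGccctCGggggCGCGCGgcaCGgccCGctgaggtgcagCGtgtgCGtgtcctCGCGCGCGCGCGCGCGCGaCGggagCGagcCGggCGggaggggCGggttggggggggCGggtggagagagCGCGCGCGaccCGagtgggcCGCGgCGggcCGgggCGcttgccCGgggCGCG
Pcgf5 member: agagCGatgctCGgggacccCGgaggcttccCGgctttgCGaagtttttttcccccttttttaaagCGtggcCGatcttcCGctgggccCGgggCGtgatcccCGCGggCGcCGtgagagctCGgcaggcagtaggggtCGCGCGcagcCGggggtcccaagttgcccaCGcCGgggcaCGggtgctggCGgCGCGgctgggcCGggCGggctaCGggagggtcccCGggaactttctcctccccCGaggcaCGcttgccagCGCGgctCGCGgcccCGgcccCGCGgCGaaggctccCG
Tln2 member: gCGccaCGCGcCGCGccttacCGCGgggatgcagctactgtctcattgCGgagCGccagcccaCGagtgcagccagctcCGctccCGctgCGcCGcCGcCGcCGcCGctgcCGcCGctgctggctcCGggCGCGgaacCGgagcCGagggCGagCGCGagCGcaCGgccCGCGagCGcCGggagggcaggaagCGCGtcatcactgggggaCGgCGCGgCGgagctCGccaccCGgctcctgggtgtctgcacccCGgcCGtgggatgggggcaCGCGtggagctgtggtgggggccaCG

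The other 2 are from the members with most H3K4me3. The Npas3 member, at chr12:54988880-54989179 in an intron of a gene for a neuronal transcription factor, had 10 CpG in its stretch and a G+C content of 54.0%. The member of the chromosome 15 block, at chr15:62322255-62322554, is intergenic, 504 kb from Myc, and had 2 CpG and 43.7% G+C.
Npas3 member: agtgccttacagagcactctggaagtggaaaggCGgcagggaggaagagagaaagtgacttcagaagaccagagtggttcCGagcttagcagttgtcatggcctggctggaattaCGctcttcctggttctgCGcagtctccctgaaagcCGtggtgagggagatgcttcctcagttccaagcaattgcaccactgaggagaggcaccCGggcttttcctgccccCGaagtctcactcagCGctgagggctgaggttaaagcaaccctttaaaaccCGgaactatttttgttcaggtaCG
Block member: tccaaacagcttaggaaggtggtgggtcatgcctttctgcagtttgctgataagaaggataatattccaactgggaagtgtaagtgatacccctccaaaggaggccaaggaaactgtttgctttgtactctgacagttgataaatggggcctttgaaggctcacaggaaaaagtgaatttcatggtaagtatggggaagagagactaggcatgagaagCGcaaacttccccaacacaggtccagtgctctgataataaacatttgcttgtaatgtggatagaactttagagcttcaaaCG

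Most members only just met the rule. Of the 990, 754 held 7 peaks in each line, and the highest number in either line was 9. Just outside the threshold, 14143 distal tiles held 6 peaks in one line and 6 or more in the other. Just inside it, 968 held 7 in one line and 7 or more in the other, and 22 held 8 or more in both. In LLC-NR 16721 distal tiles were dense and in LLC-R 11847. The members made up 5.92% of the dense tiles of LLC-NR, while 0.874% of all distal tiles were dense in LLC-R. They made up 8.36% of the dense tiles of LLC-R, against 1.23% of all distal tiles that were dense in LLC-NR. The same density was found in both lines in 2464 of 51380 tiles that held a transcript start (4.80%), so it was more frequent at annotated starts than at distal sites.

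The Npas3 member had the most H3K4me3, with 9 and 8 peaks (LLC-NR first, LLC-R second here and below). It held 8 and 7 peaks of H3K9ac, 5 and 5 of H3K27me3, and 4 and 7 of H3K36me3. The block member that ranked next held 8 and 9 peaks of H3K4me3 and exactly 7 in each of the other 6 libraries. The Npas3 member was lower in H3K27me3 than in H3K9ac, and the block member was high throughout. Among the 10 members with most H3K4me3, 7 lay in the block. The other 2 outside it were an intergenic tile 80.9 kb from Syt6, a synaptotagmin, and an intronic tile of 2810474O19Rik. Both held 8 and 8 peaks of H3K4me3 and 8 and 8 of H3K9ac.

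All 3 marks that the rule did not use were denser in members than in other distal tiles, in both lines. H3K9ac reached 6.66 ± 0.889 peaks per LLC-NR tile, with 6.31 ± 1.04 for LLC-R (mean ± SD across 990 members). In 1301392 other distal tiles it was 5.01 ± 1.93 and 4.61 ± 1.85. The ratios of these means were 1.33 and 1.37. For H3K27me3, the ratios were 1.34 and 1.20, and for H3K36me3 they were 1.42 and 1.26. The excess was thus not limited to the acetylation that shares active promoters with H3K4me3. It included the Polycomb mark. A library with a high level in other distal tiles has less room to rise, so the sizes of the ratios cannot be compared between libraries.

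On single chromosomes, the ratio was above 1 on all 19 for both H3K9ac and both H3K27me3 libraries and for H3K36me3 in LLC-R. H3K36me3 in LLC-NR was above 1 on 18, and the exception was chromosome 18, at 0.934 with 14 members. Some tiles held no peak in 1 or more libraries. When such tiles were left out, the ratios for H3K9ac were 1.21 and 1.25, for H3K27me3 1.22 and 1.10, and for H3K36me3 1.29 and 1.15. There is 1 library per line and mark, so the lines were not tested against each other, and the SD is the spread across tiles, not across tumors.

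**Figure D1:**
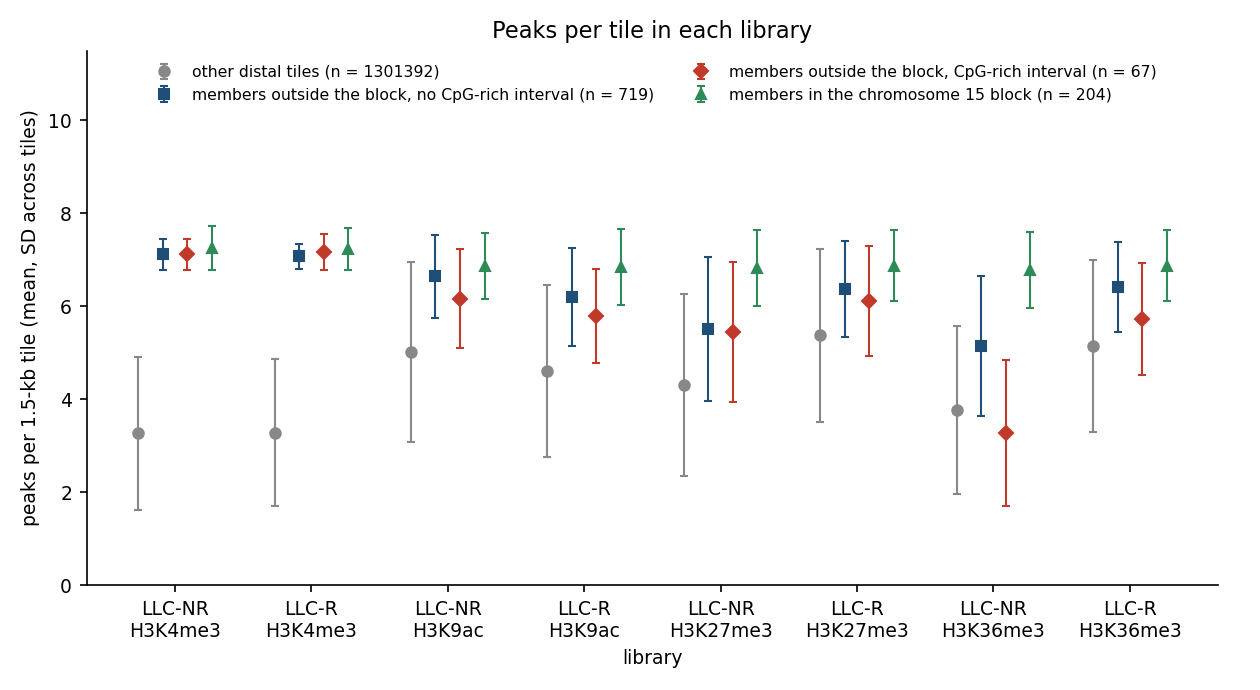
Mean number of peaks per tile of 1.5 kb (vertical axis, bars are the SD across tiles) in each of the 8 libraries (horizontal axis), for other distal tiles and the 3 kinds of members. The H3K4me3 of members lies above 7 because of how they were chosen; the members of the block stay between 6.78 and 6.88 in the other 6 libraries, and CpG-rich members fall to 3.28 in LLC-NR H3K36me3.

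Many members were dense in another mark too. H3K9ac reached 7 or more peaks in both lines in 318 members (32.1%, exact Clopper-Pearson 95% interval 29.2 to 35.1%), against 4.16% of all distal tiles. H3K27me3 did so in 269 (27.2%, 24.4 to 30.1%) against 5.48%. H3K36me3 did so in 194 (19.6%, 17.2 to 22.2%) against 2.15%. These intervals cover counting error only. All 3 marks were dense in 64 members (6.46%), of which 55 lay in the block, against 0.0427% of other distal tiles. None of the 3 was dense in 462 members (46.7%), against 89.0% of other distal tiles. Read the other way, the members were 0.564% of the tiles dense in H3K9ac, 0.362% of those dense in H3K27me3 and 0.666% of those dense in H3K36me3.

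The members sat at the end of a continuous rise. Outside the block, distal tiles with 3 H3K4me3 peaks in the lower line held 5.57 H3K9ac peaks in LLC-NR, those with 6 held 6.35, and those with 7 held 6.60. In LLC-R the values were 5.13, 5.90 and 6.16. H3K27me3 in LLC-NR rose from 4.80 to 5.44 and 5.52, and in LLC-R from 5.95 to 6.38, with 6.36 at 7 peaks. H3K36me3 in LLC-NR rose from 4.20 to 5.06 and stood at 4.99 at 7 peaks. In LLC-R it rose from 5.70 to 6.27 and 6.36.

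**Figure D2:**
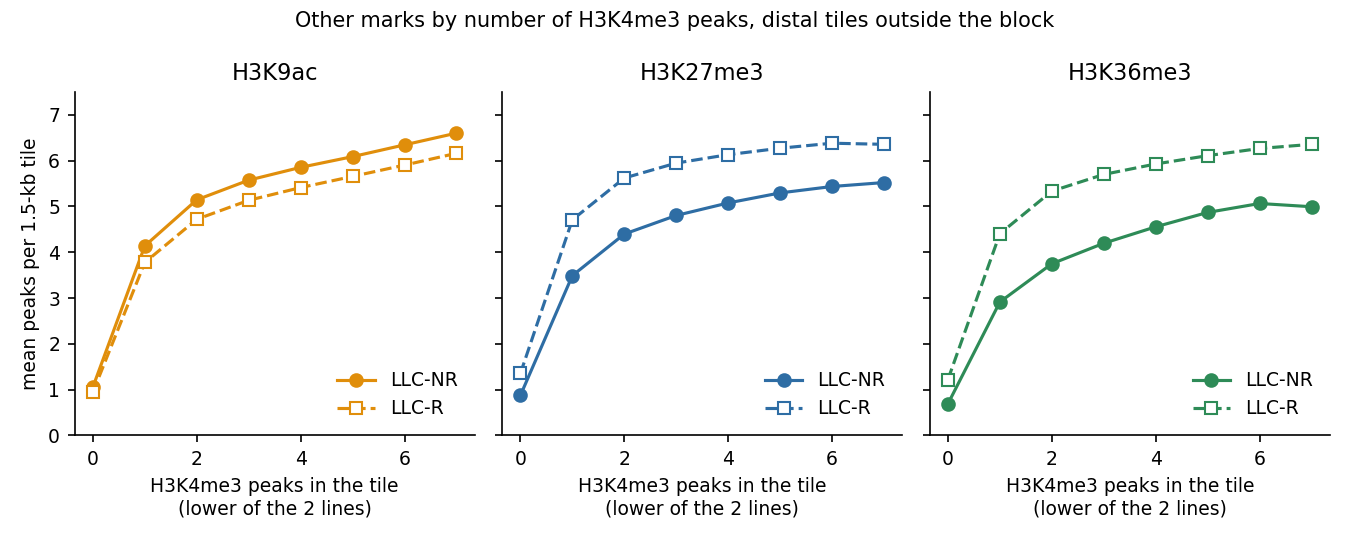
Mean number of H3K9ac, H3K27me3 and H3K36me3 peaks per tile (vertical axes) by the number of H3K4me3 peaks in the line with fewer (horizontal axes), in distal tiles outside the chromosome 15 block; filled points are LLC-NR, open points LLC-R. The steepest step is from 0 to 1 peak, and from 6 to 7 H3K9ac still rises while H3K27me3 is flat in LLC-R and H3K36me3 is flat in LLC-NR.

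Around members outside the block, H3K4me3 at 1.5 kb on either side was 4.70 and 4.80 peaks per tile in LLC-NR. The LLC-R means were 4.39 and 4.42. The lower level than in the members themselves (7.12 and 7.08) follows from the rule. At 15 kb downstream in chromosome order it was 4.12 and 4.02, still above the 3.28 and 3.28 of other distal tiles. H3K9ac in LLC-NR was 6.61 in the members and 6.15 on both sides. Outside the block, 778 members had no member beside them and 4 pairs were adjacent.

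The block on chromosome 15 held more members than any other place. It ran from chr15:61400001-62700000 and was defined as the longest run of 100-kb bins that each held a member. With 828 of the distal tiles (0.0611%) it held 204 of the members (20.6%), and 24.6% of its distal tiles were members against 0.0580% elsewhere. The next longest runs spanned 0.3 Mb. Myc, a transcription factor that drives growth and division, lies in the block at chr15:61816946-61821929. Pvt1, a long noncoding RNA gene beside Myc, lies at chr15:61869542-62209651 and held 71 members among its 215 distal tiles. Of the other block members, 133 lay in no annotated gene. The number per bin ranged from 1 to 26.

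All 8 libraries were high in the block. Over its 867 tiles, the 8 means lay between 5.87 peaks per tile (H3K4me3 in LLC-R) and 6.27 (H3K27me3 in LLC-R). In the 1 Mb before it, the same libraries had means between 2.78 and 5.36, and in the 1 Mb after it between 2.56 and 5.34. H3K36me3 in LLC-NR, for example, stood at 6.03 in the block and at 3.29 and 3.53 on its sides. H3K27me3 in LLC-R, the highest library on both sides, stood at 6.27 in the block and at 5.36 and 5.34 beside it. The 8 libraries include the 2 of H3K4me3 that chose the members and so the block. The comparisons of bins that follow are therefore in part set by the rule. Across the bins of the block, the difference between the highest and the lowest library had a median of 0.284 peaks per tile, against 2.33 in 23974 other bins. The lowest of the 8 libraries had a mean above 5 in 11 of the 13 bins of the block and in 11 of the 23974 others. The nearest to the block was a bin of chromosome 1 at Trpm8, with a lowest mean of 6.14, where 14 tiles were distal and 1 was a member, in an intron of this gene for a cold-sensing ion channel.

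**Figure D3:**
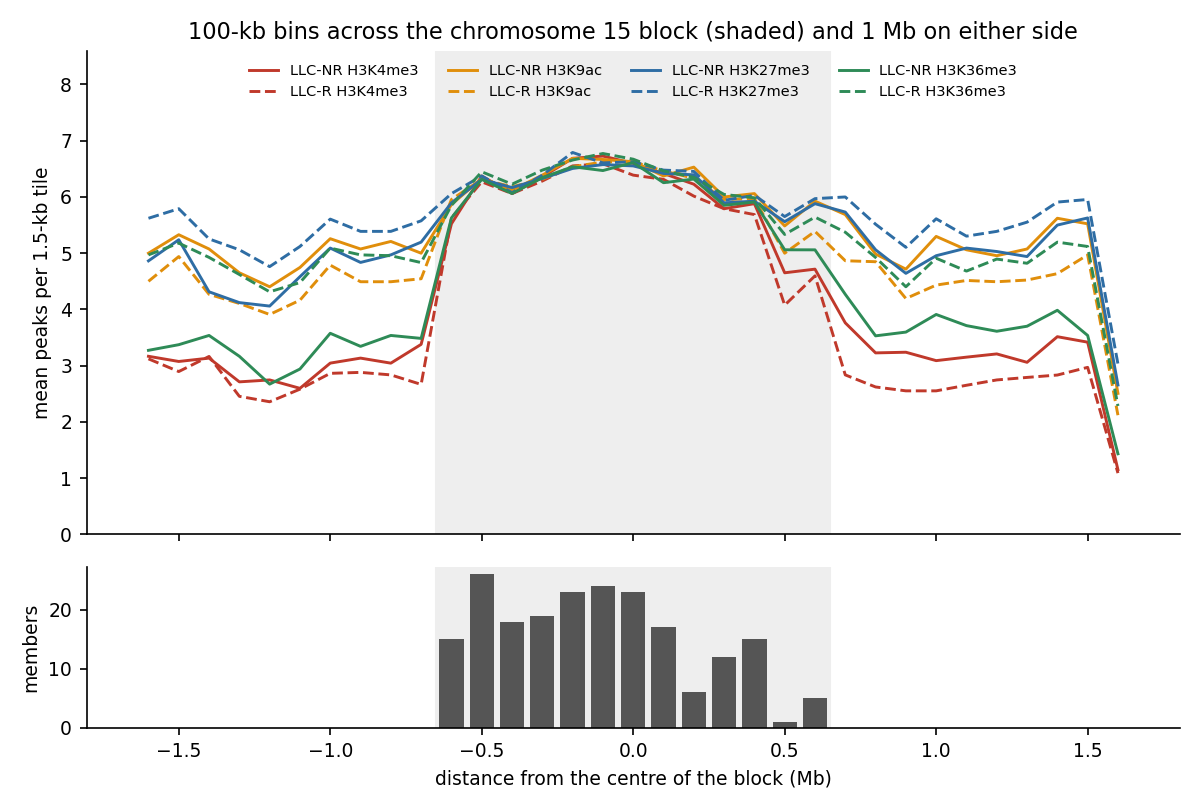
Mean number of peaks per tile in 100-kb bins for each of the 8 libraries (upper panel) and the number of members per bin (lower panel), by distance in Mb from the centre of the chromosome 15 block, which is shaded. Inside the block the bin means of all libraries lie between 4.08 and 6.79, outside it they spread from 1.09 to 6, and no bin plotted outside it holds a member.

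The block members were alike in every mark. Their means in the 6 libraries of the other marks lay between 6.78 and 6.88 peaks per tile. H3K9ac was dense in both lines in 54.9% of them, H3K27me3 in 53.9% and H3K36me3 in 48.5%, and all 3 in 27%. In the other 624 distal tiles of the block these shares were 26.0%, 22.3%, 24.4% and 7.85%. They were 4.31%, 5.68%, 2.22% and 0.0427% in all other distal tiles. The G+C content of the block members was 42.2% ± 3.66 against 40.9% ± 3.74 in the other block tiles, and the CpG observed over expected ratio was 0.149 in both. None of the 204 had a CpG-rich interval (0%, up to 1.79%). Runs of 4 or more adjacent members were found only here. One of 9 tiles at chr15:61836001-61849500 lay between Myc and Pvt1 and held 5 to 9 peaks in every tile and library. Those of 4 tiles lay at chr15:61578001-61584000 and chr15:62031001-62037000, with 6 to 9 and 6 to 8 peaks.

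Without the block, the excess of the other marks was smaller but remained. The ratios were then 1.32 and 1.34 for H3K9ac, 1.28 and 1.18 for H3K27me3, and 1.32 and 1.23 for H3K36me3. The shares of members dense in both lines were 26.2%, 20.2% and 12.1% of 786. In distal tiles with 6 H3K4me3 peaks in the lower line outside the block, these shares were 15.9%, 16.5% and 9.12%. The spread over chromosomes was uneven. Outside the block, chromosome 12 held 118 members (0.167% of its distal tiles) and chromosome 3 held 99 (0.107%), while chromosome 7 held 7 (0.00897%).

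Members outside the block were richer in G+C, at 45.2% ± 6.27, and in CpG than other distal tiles. Over all members, G+C was 44.6% ± 5.96 against 41.3% ± 5.08, and a tile held 18.9 CpG against 11.49. The CpG observed over expected ratio was 0.223 ± 0.148 against 0.171 ± 0.0892. The G+C difference was positive on all 19 chromosomes. The difference in the CpG ratio was positive on 18, and on chromosome 15, which holds the block, it was -0.00237. A CpG-rich interval was found in 67 members (6.77%, 5.28 to 8.52%), against 0.533% of all distal tiles and 2.25% of tiles with 6 peaks in the lower line outside the block. They lay on all 19 chromosomes and were nearest to 65 different genes. None was more than 100 kb from a transcript start, while 27.8% of other distal tiles were.

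The 67 CpG-rich members differed from the remaining members in the other marks. In 51 of them (76.1%, 64.1 to 85.7%) none of the 3 other marks was dense in both lines, against 50.5% of the 719 without an interval (46.8 to 54.2%). In other distal tiles this share was higher, at 89.0%. H3K9ac was dense in 7 of the 67 (10.4%, 4.30 to 20.3%) and in 27.7% of the 719 (24.4 to 31.1%). H3K36me3 was dense in 2 (2.99%, 0.364 to 10.4%), against 12.9% of the 719 (10.6 to 15.6%). In other distal tiles, H3K9ac was dense in 4.31% and H3K36me3 in 2.22%. The H3K36me3 share of the 67 was thus close to that of other distal tiles. In mean peaks per tile, H3K36me3 in LLC-NR was 3.28 ± 1.57, below the 5.15 ± 1.51 of the other members outside the block and below the 3.77 ± 1.81 of other distal tiles. In LLC-R it was 5.73 ± 1.20, against 6.41 ± 0.973 and 5.15 ± 1.84. H3K36me3 peaks were more numerous in LLC-R than in LLC-NR in 60 of the 67 (89.6%) and fewer in 1. They were also more numerous in 69.9% of other distal tiles and in 81.0% of 310 CpG-rich tiles with 6 H3K4me3 peaks in the lower line outside the block. The mean difference, LLC-NR minus LLC-R, was -2.45 ± 1.54 peaks per tile in CpG-rich members, -2.003 ± 1.59 in those 310 tiles and -1.38 ± 1.495 in other distal tiles. H3K27me3, at 5.45 and 6.12, lay close to the 5.52 and 6.37 of the other members outside the block.

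The members whose sequences are printed above show this. The Gm20388 member held 7 and 7 H3K4me3 peaks in LLC-NR and LLC-R but 3 and 4 of H3K36me3, and the Fam83f member 7 and 7 but 2 and 3. The Pcgf5 member held 3 and 6 and the Tln2 member 3 and 5 of H3K36me3. H3K9ac was 3 and 6 in the Gm20388 member and 7 and 6 in the Tln2 member. In contrast to the block member, with 7 in each, H3K36me3 was low in all 4 in LLC-NR.

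H3K36me3 of members followed G+C in LLC-NR. Outside the block, members of under 35% G+C held 5.89 H3K36me3 peaks in LLC-NR, those of 45 to 50% held 4.81, and those of 60% or more held 2.48. In LLC-R the means were 6.56, 6.27 and 4.87. Other distal tiles of the same classes held 4.09, 3.82 and 1.79 in LLC-NR. Their LLC-R means were 5.49, 5.35 and 3.04. The part of base composition in these libraries was not tested. H3K9ac of members in LLC-NR was 6.44, 6.70 and 5.78 in the same classes.

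**Figure D4:**
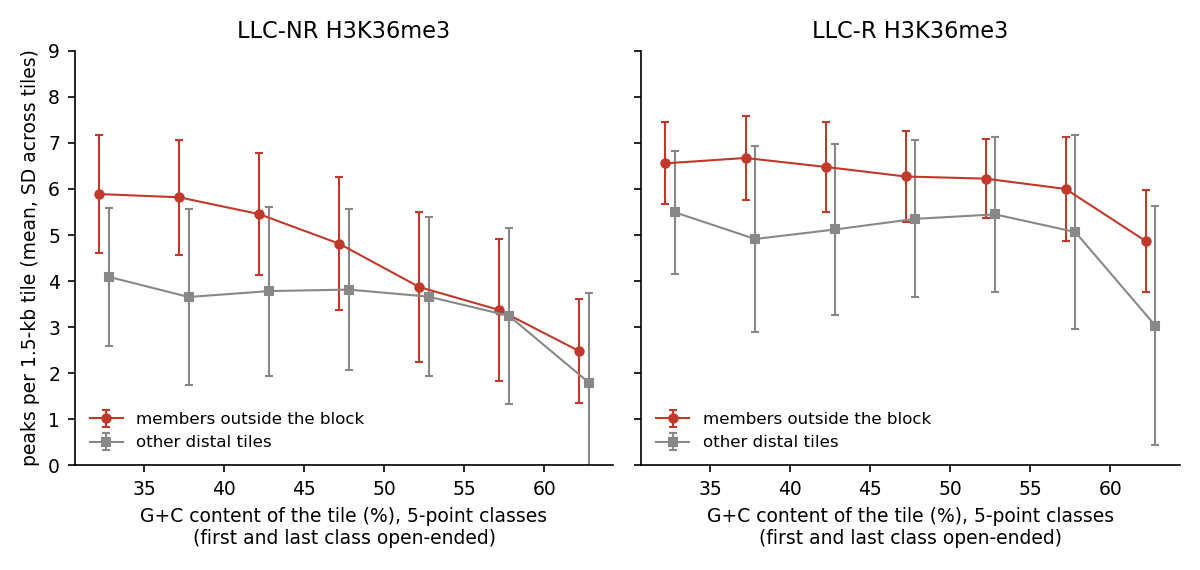
Number of H3K36me3 peaks per tile (mean, bars are the SD across tiles, axis cut at 0) by the G+C content of the tile in 5-point classes, for members outside the chromosome 15 block and for other distal tiles, in LLC-NR (left) and LLC-R (right). In LLC-NR the members fall from 5.89 to 2.48, with 3.87 against 3.66 in other tiles at 50 to 55%, and in both lines the members lie above the other tiles in every class.

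CpG-rich tiles that were not members included many with few peaks. Of 7145 such tiles, 58.3% held a peak in every library, against 88.8% of all other distal tiles. In the 4162 that did, H3K36me3 was 3.15 ± 1.53 peaks per tile in LLC-NR, close to the 3.28 of CpG-rich members, and 4.67 ± 1.65 in LLC-R. H3K9ac was 4.54 ± 1.84 and 4.19 ± 1.72, below the 6.16 ± 1.07 and 5.79 ± 1.01 of the members. In the 310 CpG-rich tiles just below the threshold, H3K9ac was 6.09 ± 1.19 and 5.59 ± 1.22 and H3K36me3 3.41 ± 1.57 and 5.41 ± 1.12, so the CpG-rich members differed little from their nearest non-members in these marks.

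Short motifs were searched on both strands of each tile. The GC box GGGCGG, which Sp1 family factors bind, was in 61 of the 67 CpG-rich members (91.0%), in 18.4% of the other members outside the block, in 9.31% of block members and in 10.6% of other distal tiles. In CpG-rich other tiles with a peak in every library it was in 60.7%. The letters of GC boxes are themselves rich in G+C. The AP-1 site TGANTCA was in 42.4% of members (39.3 to 45.6%) and 37.5% of other distal tiles. The ETS site CCGGAAG was in 6.36% (4.92 to 8.07%) against 3.64%, and the E-box CACGTG in 17.2% (14.9 to 19.7%) against 13.4%. Runs of at least 10 CA units were in 16.4% (14.1 to 18.8%) against 13.9%. AP-1, ETS, E-box and CA shares were 41.6%, 5.01%, 15.8% and 17.8% in tiles with 6 H3K4me3 peaks in the lower line outside the block. The ETS and E-box words each hold a CpG. In CpG-rich members the ETS site was in 16.4% (8.49 to 27.5%) and the E-box in 32.8% (21.8 to 45.4%). In CpG-rich other tiles with a peak in every library, these shares were 21.6% and 24.7%. The ETS site was thus not more frequent in the CpG-rich members. A match says only that these letters are in the tile.

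Members lay in intergenic and intronic sequence about as often as other distal tiles, more often in exons, and nearer to transcript starts. Of the members, 61.8% were intergenic (58.7 to 64.9%), 34.9% intronic (32.0 to 38.0%) and 3.23% exonic (2.22 to 4.53%) at the tile midpoint. Other distal tiles were 63.1%, 35.1% and 1.78%. Any exonic base was in 11.7% of members (9.78 to 13.9%), in 14.4% of those outside the block (12 to 17.0%) and in 7.52% of the others. Outside the block, 25.8% of members (22.8 to 29.0%) lay 5 to 10 kb from a transcript start, against 12.7% of other distal tiles outside it. The median distance was 19.05 kb outside the block, 82.2 kb in the block and 42.9 kb in other distal tiles. Tiles with 6 H3K4me3 peaks in the lower line outside the block were similar. Of these, 3.52% were exonic, 13.9% held an exonic base and 20.5% lay at 5 to 10 kb. The higher exon shares are thus not particular to members.

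Protein-coding genes nearest to a member numbered 692, which is 3.66% of the 18885 genes nearest to a distal tile. Myc was nearest to all 204 members of the block. Outside it, no gene had more than 5, and 79 had 2 or more. Trib2, a pseudokinase, had 5, at 202 to 359 kb from its start on chromosome 12. It was nearest to 683 distal tiles, against a median of 22 for all genes. Daam1, a formin of the Wnt pathway for cell polarity, and AB041803 had 4 each, and were nearest to 239 and 107 distal tiles. In gene bodies, Nedd4, a ubiquitin ligase, and Npas3 held 3 members each, and 19 genes held 2. Among these were Ets1, a transcription factor active in endothelial cells, Aff1, a subunit of an elongation complex, Fut8, which adds core fucose to glycoproteins, 2810474O19Rik, 4930593A02Rik, Ankrd36 and the 4435-kb gene model Gm20388. The Nedd4 members held 8 and 8, 8 and 8, and 7 and 7 peaks of H3K36me3 in LLC-NR and LLC-R.

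Of 19 genes of angiogenesis with a distal tile, 2 were nearest to a member (10.5%, against 3.66% of all genes), Nrp2 and Hif1a. These 19 genes had a median of 89 distal tiles and all genes a median of 22. The Nrp2 member, 171 kb from the start of this VEGF co-receptor, lies in an exon of Pard3b and held 7 and 7 H3K4me3 peaks, 7 and 8 of H3K9ac and 7 and 7 of H3K27me3. The members 55.6 and 107 kb from Hif1a, the transcription factor of the hypoxia response, are intergenic. They held 8 and 6, and 7 and 7, peaks of H3K9ac. None of the 5 genes that the study chose for ChIP-qPCR was nearest to a member. Pax9, a developmental transcription factor, was nearest to a member that held 7 and 6 peaks of H3K27me3.

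Early response and cell cycle genes had 5 of 13 nearest to a member (38.5%, against 3.66% of all genes), with Myc there through the block alone. They were Myc, Fos, Runx1, Ets1 and Nfkbia, and the values of the last 4 are given because of their number, after they were seen. Both Fos members and the 3 of Nfkbia, the inhibitor of NF-kB, are intergenic and lie on chromosome 12. The Nfkbia members, 20.4 to 30.9 kb from its start, held 1 and 6, 4 and 7, and 3 and 7 peaks of H3K36me3 in LLC-NR and LLC-R, and the nearest Fos member 2 and 5. The 2 Ets1 intron members held 2 and 6, and 2 and 5, peaks of H3K27me3. The Runx1 member, in an intron 8.51 kb from a start, held 4 and 7. In other distal tiles, H3K36me3 had means of 3.77 and 5.15 peaks per tile, and H3K27me3 4.31 and 5.38. Both marks thus had more peaks in LLC-R there too. Only 1 mark per gene is given here, and not every member, and other marks can go the other way. The Nfkbia member at 30.9 kb, with 1 and 6 peaks of H3K36me3, held 7 and 5 of H3K27me3 and 6 and 5 of H3K9ac. These 13 genes had a median of 114 distal tiles, so they too had more places for a member than most genes.

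Of the marker lists, 0 of 6 leukocyte genes, 1 of 7 endothelial genes (Emcn, with 2 members), 1 of 8 fibroblast genes (Dcn, with 1) and 0 of 8 lung epithelium genes were nearest to a member, against 3.66% of all genes. The lists had medians of 22, 89, 102 and 26 distal tiles. The Emcn members were 98.3 and 193 kb away, and the Dcn member 292 kb.

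H3K4me3 peaks of the lines lay closer together in denser tiles, and a higher density alone brings midpoints closer. In distal tiles with 2 peaks in the lower line, 14.8% of LLC-NR midpoints had an LLC-R midpoint within 20 bp, and with 6 peaks 32.6% did. In members outside the block it was 40.04% without a CpG-rich interval and 48.4% with one. In block members it was 58.0%, and in other distal tiles of the block, which hold fewer peaks, 46.2%. The share of LLC-NR H3K4me3 midpoints near an LLC-NR H3K36me3 midpoint was 18.2% in CpG-rich members, 30.5% in the other members outside the block and 58.4% in block members. In LLC-R, the same share was closer between the first 2 kinds, at 29.3%, 35.2% and 58.7%. For H3K27me3 in LLC-NR it was 33.8%, 33.1% and 58.9%. A higher density of the second mark alone also brings midpoints closer. H3K36me3 had 3.28, 5.15 and 6.78 peaks per tile in these 3 kinds in LLC-NR. In LLC-R it had 5.73, 6.41 and 6.88. Peaks of 1 tile are not independent, so no interval is given.

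**Figure D5:**
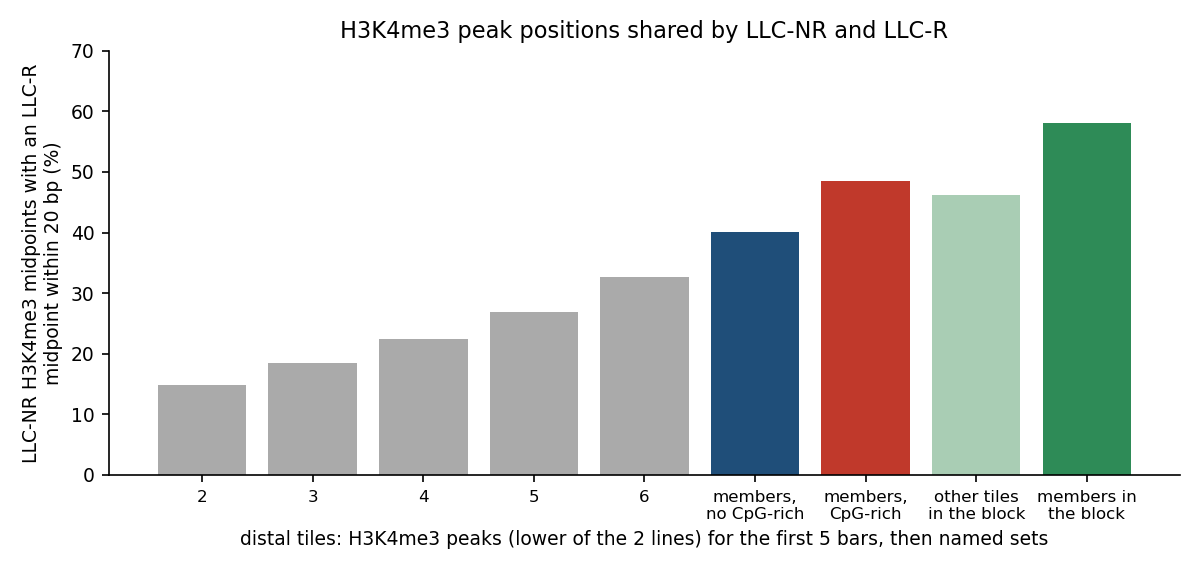
Percent of LLC-NR H3K4me3 peak midpoints with an LLC-R midpoint within 20 bp (vertical axis, from 0) in distal tiles by number of H3K4me3 peaks in the lower line and in the 3 kinds of members. The share climbs from 14.8% at 2 peaks to 32.6% at 6, and is 58.0% in block members.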

How the data were processed

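Chromatin from LLC-NR and LLC-R isografts was measured by ChIP-seq after micrococcal nuclease digestion, with 1 library per line and mark. Per the submitters' processing notes, Bowtie 0.12.7 and the mm9 assembly were used. The authors allowed up to 2 mismatches, kept reads with a unique position and ran GeneTrack for the peaks of every library, with settings that are not given in the sources used here. The deposited files hold peak positions of nucleosome width and no other score. The files therefore give no depth in reads. The read totals that the study lists differ between libraries and were not used here.

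Midpoints were counted in tiles of 1.5 kb with Python 3.11.15, numpy 2.4.6, pandas 2.3.3, scipy 1.17.1 and matplotlib 3.10.9. Transcripts came from GENCODE vM1 and sequence from NCBIM37, the assembly of mm9. Other distal tiles exclude those with an N base. The counting was tested on simulated data. Without replicates no test was made.

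Members and lists were chosen with earlier results of these data known. The chromosome 15 block and the split by CpG-rich interval were defined after values were seen. The genes named were those of the 10 members with most H3K4me3 peaks, ties broken by H3K9ac and then H3K27me3, runs of 4 or more adjacent members, the 10 genes that held most members, at most 3 members per gene list, and the 5 members with most CpG, of which 1 sequence, in a UTR, is not shown. Genes outside this rule (Trib2, Daam1, AB041803, Trpm8 and the further early response, Nedd4 and marker values) were chosen after their values were seen. Alternatives covered the tile grid, the threshold, the distance, whole peaks, tiles with N, covered tiles, G+C classes, single chromosomes and the block. The list of developmental transcription factors is not reported here as a whole.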

Additional observations from a re-analysis of the deposited data

Results flagged for a closer look

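H3K36me3 at CpG-rich members lay on opposite sides of other distal tiles in the lines: the ratio of mean peaks per tile was 0.871 for the sensitive line and 1.11 for the resistant line. The same held in 310 CpG-rich tiles just below the threshold, at 0.904 and 1.05, so it is not particular to members. The other distal tiles of these ratios are of any CpG content. In 4162 CpG-rich other tiles with a peak in every library, the means were 3.15 and 4.67 peaks per tile. The CpG-rich members, at 3.28 and 5.73, were not below these in either line. With 1 library each, and more reads in LLC-R, the difference between the lines was not tested.

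Chromosome X was not part of the rule. Of its 90953 distal tiles, 6 held 7 or more H3K4me3 peaks in both lines.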

How the results depend on the processing

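No paired analysis was possible because the labels carry no replicate numbers and each line has 1 library per mark. The number of members depended on the threshold, with 15136 at 6 or more peaks and 22 at 8 or more, and fell to 137 when whole peaks had to lie in the tile. With only tiles that held a peak in every library, the ratios for LLC-NR and LLC-R were 1.21 and 1.25 for H3K9ac and 1.22 and 1.10 for H3K27me3, and 1.15 for H3K36me3 in LLC-R. Against tiles with 6 H3K4me3 peaks in the lower line, an alternative added after seeing the data, they were 1.05, 1.07, 1.06, 1.01, 1.05 and 1.03. At 8 or more peaks, H3K9ac in LLC-R was 1.54 and H3K27me3 in LLC-R 1.27. The latter was 1.27 with whole peaks and 1.25 with N tiles included. The only reversal was H3K36me3 in LLC-NR on chromosome 18, at 0.934. The shares dense in H3K9ac, H3K27me3 and H3K36me3 were 17.4, 17.5 and 10.4% at 6 or more, 63.6, 31.8 and 31.8% at 8 or more, and 26.2, 20.2 and 12.1% without the block. The CpG-rich share was 2.49% at 6 or more, 13.6% at 8 or more, 8.52% without the block and 8.59% with 500 bp on either side. At 8 or more, the difference in CpG observed over expected was 0.119, and 54.5% were intergenic, 45.5% intronic and 0% exonic. Counting any exonic or transcribed base gave 26.8% intronic and 11.7% exonic. Nearest genes numbered 6179 at 6 or more and 11 at 8 or more. Of LLC-NR H3K4me3 midpoints in members, 44.4% had an LLC-R midpoint within 20 bp, 31.7% within 10 bp and 59.4% within 40 bp. The causes were not tested. Peak positions have no height, so differences in occupancy above a peak call cannot be seen.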
